A study of Mus musculus with 34 samples.

Results

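The genes described here encode writers and erasers of methylation on lysine 4 of histone H3 (H3K4). They were chosen by name and not by their values, though with earlier results of these data known. They number 10 of the 22040 genes in the deposited table. These are the methyltransferases *Kmt2a*, *Kmt2b*, *Kmt2c* and *Kmt2d*, the core subunits *Wdr5*, *Ash2l* and *Rbbp5*, and the demethylases *Kdm1a*, *Kdm5b* and *Kdm6a*. RNA was sequenced from limb buds of mouse embryos at E11.5, with 3 libraries from WT embryos and 3 from CKO embryos. In the CKO embryos, *Prrx1-Cre* deletes a floxed part of *Hnrnpk* (*Hnrnpk* fl/fl), the gene of an RNA- and DNA-binding protein. *Prrx1-Cre* is active in limb bud mesenchyme, not in the ectodermal ridge, and incompletely in the hindlimb, so whole limb buds retain cells with an intact allele. The libraries were labelled as replicates 1, 2 and 3 of each genotype, and the sex of the embryos was not given for any library. The paper calls them biological replicates, without saying how many embryos each holds. The study also profiled H3K4me1 and H3K4me3, which are not analysed here, so the levels of the enzymes' RNA are all that is compared.

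H3K4 methylation marks active regulatory DNA. H3K4me3 lies mainly at promoters and H3K4me1 at enhancers. The KMT2 enzymes are large SET-domain proteins that work in COMPASS-like complexes, where WDR5, RBBP5, ASH2L and DPY30 form a shared core that their full activity needs. KMT2A and KMT2B are known for maintaining Hox genes and promoter methylation, and KMT2C and KMT2D for methylating enhancers. KDM1A (LSD1) removes H3K4me1 and H3K4me2 as part of CoREST complexes, and KDM5B removes H3K4me2 and H3K4me3. KDM6A (UTX) acts on another residue, lysine 27, but is a subunit of the KMT2C and KMT2D complexes.

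The loci are given on GRCm38 from GENCODE vM21. *Kmt2a* lies on the minus strand at chr9:44803355-44881296, *Kmt2b* on the minus strand at chr7:30568858-30588726, *Kmt2c* on the minus strand at chr5:25271798-25498783 and *Kmt2d* on the minus strand at chr15:98831669-98871204. *Wdr5* lies on the plus strand at chr2:27515157-27536535, *Ash2l* on the minus strand at chr8:25815996-25847694 and *Rbbp5* on the plus strand at chr1:132477365-132505659. *Kdm1a* lies on the minus strand at chr4:136550540-136602723, *Kdm5b* on the plus strand at chr1:134560171-134635285 and *Kdm6a* on the plus strand at chrX:18162575-18279936. The merged exons of the 10 genes run from 3596 bases in *Wdr5* to 20291 bases in *Kmt2c*, and 4 of the genes (*Kmt2a*, *Kmt2c*, *Kmt2d* and *Kdm5b*) exceed 12000 bases. Exons of *Kmt2a* and *Kmt2c* share 378 and 274 bases with genes on the opposite strand, and the other 8 genes share none. The kit keeps strand, but whether the counting used it was not given.

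Promoter windows from RefSeq (GRCm38.p6) were at hand for 8 of the 10 genes, with no entry for *Kmt2b* and *Ash2l*. The windows of *Kmt2a*, *Kmt2c* and *Kmt2d* are shown because the values of these genes moved together across the libraries. Each is the 250 bases before the RefSeq gene start, read 5′ to 3′ on the gene's strand, with every CG dinucleotide in capitals. They lie at chr9:44881290-44881539, chr5:25498784-25499033 and chr15:98871206-98871455, all on the minus strand.

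Kmt2a: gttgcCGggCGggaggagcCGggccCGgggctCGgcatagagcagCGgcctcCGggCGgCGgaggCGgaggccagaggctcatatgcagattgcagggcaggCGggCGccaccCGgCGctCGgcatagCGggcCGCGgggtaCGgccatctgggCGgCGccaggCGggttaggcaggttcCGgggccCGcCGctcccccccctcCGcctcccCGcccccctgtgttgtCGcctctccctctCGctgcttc
Kmt2c: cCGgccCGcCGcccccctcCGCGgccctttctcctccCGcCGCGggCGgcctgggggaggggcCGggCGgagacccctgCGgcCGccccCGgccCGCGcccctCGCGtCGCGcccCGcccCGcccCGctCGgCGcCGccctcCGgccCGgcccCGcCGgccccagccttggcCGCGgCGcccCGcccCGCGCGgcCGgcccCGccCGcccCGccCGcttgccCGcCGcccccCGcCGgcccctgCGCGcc
Kmt2d: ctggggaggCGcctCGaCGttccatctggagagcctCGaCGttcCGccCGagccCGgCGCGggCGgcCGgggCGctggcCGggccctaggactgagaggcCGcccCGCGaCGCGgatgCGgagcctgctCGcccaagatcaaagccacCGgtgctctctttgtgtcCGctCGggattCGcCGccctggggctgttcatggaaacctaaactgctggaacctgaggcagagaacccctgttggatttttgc

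These windows are rich in CG, the dinucleotide to which the CXXC domain of KMT2A binds when it is unmethylated. They hold 29, 48 and 26 CG in *Kmt2a*, *Kmt2c* and *Kmt2d*. The other 5 windows hold 21 in *Kdm1a*, 15 in *Kdm6a*, 13 in *Kdm5b*, 12 in *Wdr5* and 10 in *Rbbp5*. The median over 32851 promoter windows of the same length was 6, and each of the 8 genes lies above it. Between 62.2% of all windows (*Rbbp5*) and 99.8% (*Kmt2c*) held fewer. The run CCCCC, searched on both strands because hnRNPK is known to bind C-rich sequence, occurred in 5 of the 8 windows against 47.2% of all windows. It is present in *Kmt2a*, *Kmt2c*, *Rbbp5*, *Kdm1a* and *Kdm5b*, and the letters do not occur in the windows of *Kmt2d*, *Wdr5* and *Kdm6a*.

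The reads on the listed genes, recovered from the FPKM and the exon lengths, numbered from 17140887 to 24624444 per library. FPKM here are fragment counts divided by exon length and by a divisor for each library. The divisor behind the FPKM was smaller than this number for CKO replicate 2 (19146570 against 21190300) and CKO replicate 3 (23848048 against 24624444) and larger for the other 4 libraries, so the FPKM were not scaled by the reads on these genes alone. *Hnrnpk* was read at 193, 194.6 and 185 FPKM in WT and at 127, 142 and 135 FPKM in CKO replicates 1, 2 and 3. All CKO values were below all WT values, with a log2 fold change of -0.50 (SE 0.13, limma adjusted *p* = 0.334). With the replicate number as a block, the adjusted *p* was 0.0575, and with replicates 2 and 3 alone 0.0377. Its exons share 330 bases with *Rmi1* on the opposite strand, and the deletion takes only some of its exons, so the FPKM covers parts that remain. The paper itself reports the ablation as efficient in CKO limb buds at E11.5, from western blots of the protein and from qPCR. Limb mesenchyme markers (10 genes, none at 0) summed to between 411 and 445 FPKM in WT and to between 342 and 392 FPKM in CKO, without overlap. By themselves, 2 of the 10 had all CKO values below all WT values. The part of these markers' cells in the results was not tested. Embryonic and adult globins took from 11.7% (CKO replicate 1) to 32.4% (CKO replicate 2) of the summed FPKM. Erythroid markers (9 of 10 genes in the table, none at 0) summed to between 37788 and 63997 FPKM in WT and to between 30832 and 142935 FPKM in CKO. Markers of ectoderm, endothelium, macrophages and neural crest overlapped between the genotypes in their summed levels, and the muscle precursor markers are given below. In whole limb buds, fewer cells of a type and less RNA per cell cannot be told apart.

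All 10 genes were expressed in every library. FPKM is divided by the merged length of all annotated exons, so the levels of different genes compare only roughly. As given below, the values also moved with exon length between libraries. In WT, *Kdm1a* had the highest mean level at 35.8 FPKM, followed by *Wdr5* at 33.2 FPKM, and their values overlapped. *Rbbp5* (18.5 FPKM) came next, above *Ash2l* (15.2 FPKM) and *Kmt2b* (14.4 FPKM), which overlapped each other. *Kdm5b* (10.5 FPKM), *Kmt2d* (10.1 FPKM), *Kmt2a* (8.79 FPKM) and *Kdm6a* (8.22 FPKM) followed, and the range of each overlapped the next. Within every WT library, *Kmt2d* was above *Kmt2a*. The ranges of both also overlapped that of *Kmt2b*. *Kmt2c* was lowest at 4.13 FPKM, with no value as high as the lowest of *Kdm6a*. In CKO the order was the same except that *Kmt2d* stood above *Kdm5b*. Over all 6 libraries the genes lay between the 36.4 percentile (*Kmt2c*) and the 90.2 percentile (*Kdm1a*) of mean FPKM among the tested genes.

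**Figure D1:**
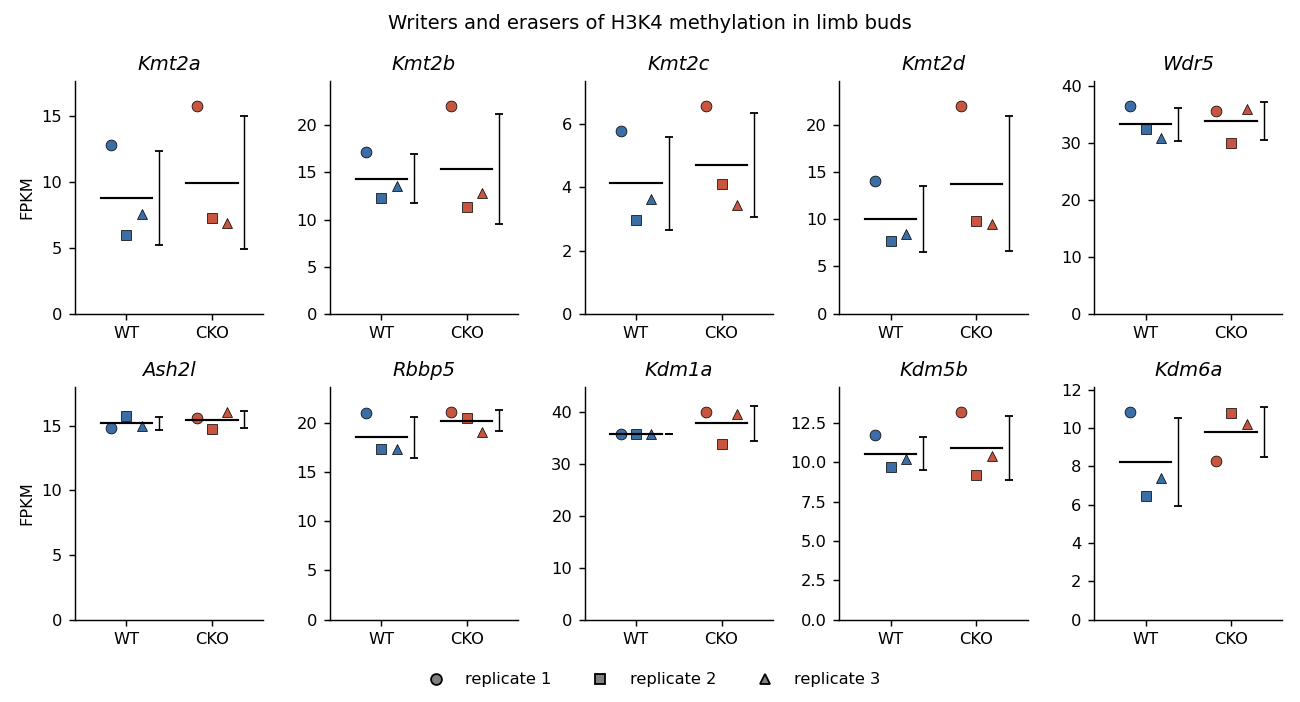
FPKM of the 10 genes in each library (linear axis from 0, 1 panel per gene), with WT in blue, CKO in red, a marker shape for each replicate number, a line at the group mean and a bar beside it for the SD of 3 libraries. Replicate 1 is the highest library of both genotypes in all 4 *Kmt2* panels, and the CKO and WT values overlap in all 10.

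Of the 10 genes, 0 differed between CKO and WT at a limma adjusted *p* under 0.05, and 0 at an unadjusted *p* under 0.05. Over the 12305 tested genes, 0.0650% passed the adjusted threshold and 8.31% the unadjusted one. The CKO values lay wholly above or below the WT values for 0 of the 10 genes and for 14.5% of the tested genes. All 10 log2 fold changes lay between 0.02 and 0.39, within 1.5-fold, and an exact two-sided permutation test of the FPKM gave *p* values from 0.3 to 1, where 3 against 3 libraries cannot go below 0.1. The median over the 10 genes was 0.10 on the log2 scale and the median over all tested genes was 0.0048. Every fold change was above 0, as were 50.9% of those of the tested genes. This shared sign did not hold within the replicate numbers. CKO was higher for 8 of the 10 genes in number 1, for 5 in number 2 and for 7 in number 3. It was higher in all 3 numbers for 2 genes, *Kmt2d* and *Rbbp5*, and lower in all 3 for none, where 18.2% and 21.3% of the tested genes were so. Neither labels nor paper say that equal numbers belong together, and numbers 2 and 3 deviated together as much when crossed. Crossed in this way, CKO was above WT throughout for *Kmt2c* as well (3.45 against 2.98 FPKM and 4.10 against 3.62 FPKM). The count of genes with 1 direction thus rests on the numbers given. Without CKO replicate 1 the median over the 10 genes was -0.01.

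**Figure D2:**
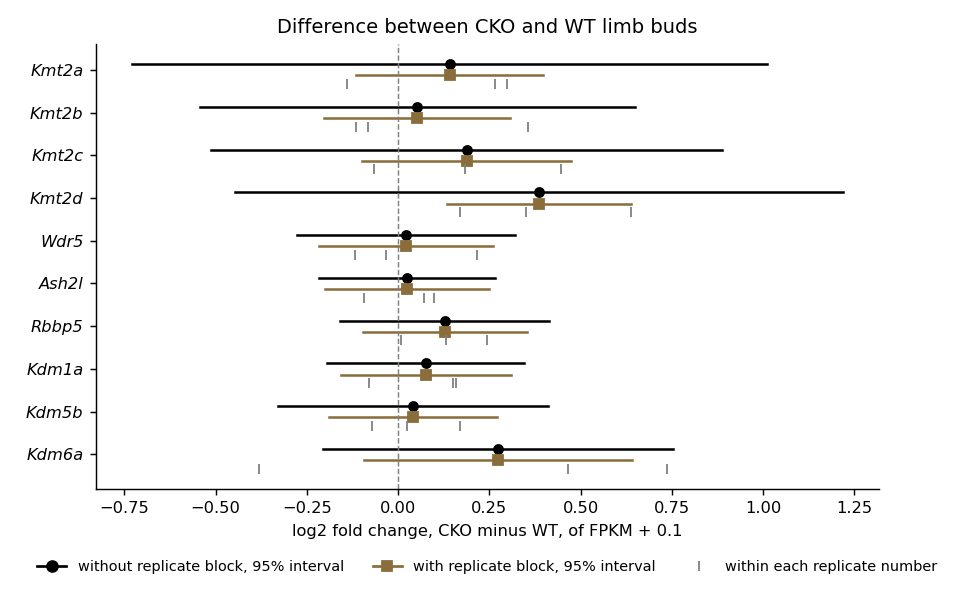
Log2 fold change (CKO minus WT, FPKM + 0.1) of each gene with its 95% interval from limma without the replicate block (black circles) and with it (brown squares), and the difference within each replicate number as grey ticks. All intervals without the block span 0, and with it that of *Kmt2d* alone lies above 0, from 0.13 to 0.64.

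Among the methyltransferases, *Kmt2d*, whose product methylates enhancers, had the largest fold change. Its FPKM was 14.1, 7.68 and 8.42 in WT and 22.0, 9.81 and 9.48 in CKO replicates 1, 2 and 3. Replicate 1 was highest in both genotypes, CKO was above WT within every replicate number, and the groups overlapped. The log2 fold change was 0.39 (SE 0.36, 95% interval -0.45 to 1.22, limma adjusted *p* = 0.841). With the replicate number as a block the SE was 0.12, the unadjusted *p* 0.00566 and the adjusted *p* 0.0975. It was the only one of the 10 genes at an unadjusted *p* under 0.05 in that model, where 18.4% of the tested genes were. Without CKO replicate 1 its fold change was -0.0080 on the log2 scale.

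*Kmt2a*, the founding member of the family and a regulator of Hox genes, was read at 12.8, 5.99 and 7.58 FPKM in WT and at 15.8, 7.22 and 6.86 FPKM in CKO. CKO was higher in numbers 1 and 2 and lower in number 3. The log2 fold change was 0.14 (SE 0.37, 95% interval -0.73 to 1.01, limma adjusted *p* = 0.947), and it was -0.24 without CKO replicate 1.

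*Kmt2c*, the close paralogue of *Kmt2d*, had 5.78, 2.98 and 3.62 FPKM in WT and 6.58, 4.10 and 3.45 FPKM in CKO. It too was highest in replicate 1 of both genotypes, and CKO exceeded WT in numbers 1 and 2 alone. Its log2 fold change was 0.19 (SE 0.30, 95% interval -0.51 to 0.89, limma adjusted *p* = 0.909), and -0.08 without CKO replicate 1.

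*Kmt2b*, the paralogue of *Kmt2a*, had 17.2, 12.2 and 13.6 FPKM in WT and 22.1, 11.3 and 12.9 FPKM in CKO. CKO was higher in number 1 and lower in numbers 2 and 3. Its log2 fold change was 0.05 (SE 0.26, 95% interval -0.54 to 0.65, limma adjusted *p* = 0.973), and -0.24 without CKO replicate 1. Summed over the 4 enzymes, the FPKM was 49.9, 28.9 and 33.2 in WT and 66.4, 32.4 and 32.7 in CKO. That is 37.3 ± 11.1 FPKM in WT and 43.8 ± 19.6 FPKM in CKO (SD, n = 3 each), so the SD within each genotype exceeded the difference between the genotypes.

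The *Kmt2* genes thus varied more with the replicate number than with the genotype. On the log2 scale, *Kmt2a* in replicate 1 exceeded the mean of replicates 2 and 3 by 0.92 in WT and by 1.15 in CKO. The excess was 0.80 and 1.18 for *Kmt2d*, 0.80 and 0.79 for *Kmt2c*, and 0.41 and 0.87 for *Kmt2b*. Every one of these is larger than the gene's CKO against WT difference. Replicate 1 was higher in both genotypes for 8 of the 10 genes, the exceptions being *Ash2l* and *Kdm6a*, and for 35.9% of all tested genes. Replicate 1 also held the least globin RNA of each genotype, at 13.7% of the summed FPKM against 19.5% and 20.6% in WT and 11.7% against 32.4% and 23.5% in CKO. The summed ectoderm markers (8 genes) were lowest there too, at 46.9 FPKM in WT and 51.7 FPKM in CKO. Of these genes 1, *Fgf8*, went the other way in both genotypes. It was highest in replicate 1, at 10.6 FPKM in WT and 10.5 FPKM in CKO. The part of blood and ectoderm cells in the values of the *Kmt2* genes was not tested.

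This excess moved with gene length over the whole table. The median excess of replicate 1 was -0.28 in WT and -0.42 in CKO (log2) over the 1697 genes with less than 2000 bases of exon. It was 0.27 and 0.35 over the 681 genes of at least 12000 bases. *Kmt2a*, *Kmt2c* and *Kmt2d* belong to this longest class and lay above 97.1% to 99.0% of it in WT and above 93.7% to 99.7% of it in CKO. *Kdm5b*, of nearly the same length as *Kmt2a* with 16555 against 16670 bases, lay above 45.2% of the class in WT and 60.4% in CKO. *Kmt2b*, in the class from 8000 to 12000 bases, lay above 82.7% and 98.3% of it. Of the core subunits, *Ash2l* in that same class lay above 24.4% and 29.8%. In the class from 2000 to 4000 bases, *Rbbp5* lay above 88.3% in WT and 70.5% in CKO. *Wdr5*, also in that class, lay above 83.5% and 73.4%, so a high share was not limited to the *Kmt2* genes. The part of length or RNA quality in the fold changes was not tested. When the length trend of each library was removed, a step chosen after the data were seen, the log2 fold changes were 0.39 for *Kmt2d* (limma adjusted *p* = 0.621), 0.15 for *Kmt2a*, 0.19 for *Kmt2c* and 0.07 for *Kmt2b*, and 0 of the 10 genes were called, against 0.0813% of the tested genes. With the replicate block added to that model, 0 of the 10 and 1.65% of the tested genes were called.

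**Figure D3:**
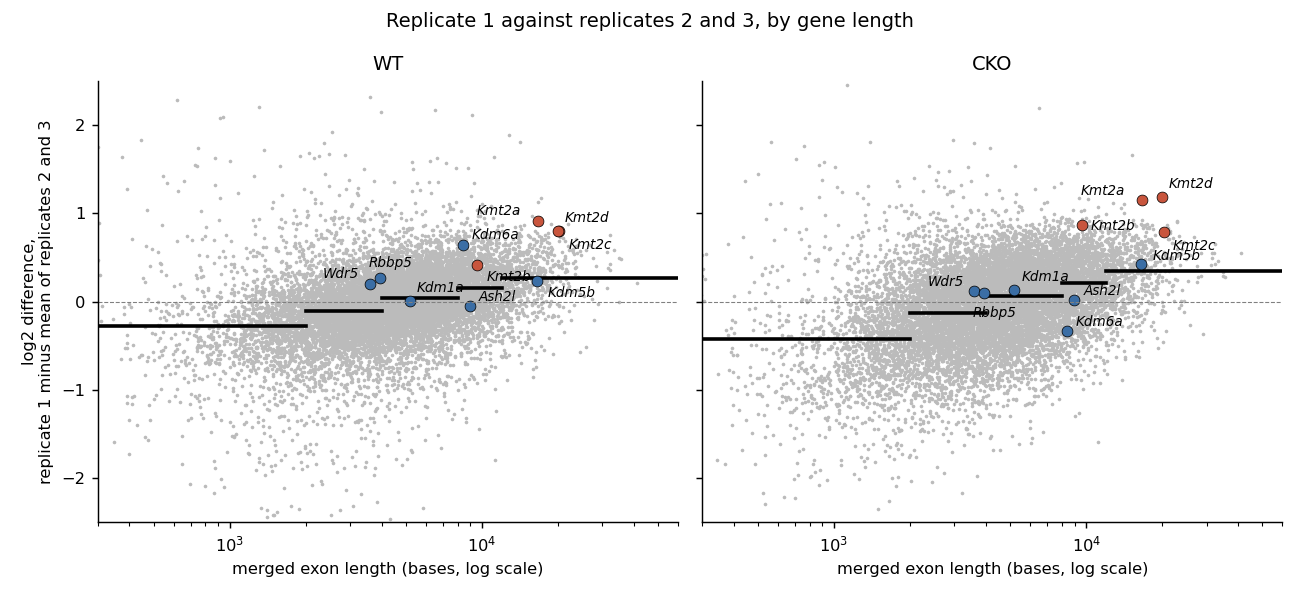
Log2 difference of replicate 1 from the mean of replicates 2 and 3 in WT (left) and CKO (right), against merged exon length on a log axis. Grey points are tested genes (53 of 12294 lie outside the range drawn in at least 1 panel), black bars are class medians, and the *Kmt2* genes (red) stand high among long genes in both panels while *Kdm5b* (blue) sits near its class median.

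The tested genes with the pattern across the 6 libraries most like the mean of the 4 *Kmt2* genes were *Ago2*, *Abl2*, *Ankrd52*, *Zbtb39* and *Zfp142*. Their root mean square differences from it, on mean-centred log2 values, ran from 0.0536 in *Ago2* to 0.0906 in *Zfp142*. *Ago2* had 24.9, 13.1 and 16.01 FPKM in WT and 28.8, 16.1 and 15.3 FPKM in CKO. As in the *Kmt2* genes, replicate 1 was the highest library of each genotype. The genes were picked for their likeness to the *Kmt2* mean across the same 6 libraries. The shared height of replicate 1 thus follows from that choice and is not a separate result.

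The core subunits showed little spread of either kind. *Wdr5*, whose product bridges the SET-domain enzyme and the other subunits, had 36.4, 32.4 and 30.8 FPKM in WT and 35.6, 29.9 and 35.8 FPKM in CKO. *Ash2l*, which activates the SET domain together with RBBP5, had 14.8, 15.8 and 15.0 FPKM in WT and 15.6, 14.8 and 16.1 FPKM in CKO. Neither gene kept one sign, with CKO above WT in 1 replicate number for *Wdr5* and in 2 for *Ash2l*. The log2 fold change was 0.02 for *Wdr5* (SE 0.13, 95% interval -0.28 to 0.32, limma adjusted *p* = 0.976). For *Ash2l* it was 0.02 (SE 0.10, 95% interval -0.22 to 0.27, limma adjusted *p* = 0.971).

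*Rbbp5*, the partner of ASH2L in activating the SET domain, had 20.9, 17.3 and 17.3 FPKM in WT and 21.1, 20.5 and 18.99 FPKM in CKO. CKO was above WT in every replicate number, by 0.0086 to 0.24 on the log2 scale, while the groups overlapped through WT replicate 1. The log2 fold change was 0.13 (SE 0.12, 95% interval -0.16 to 0.41, limma adjusted *p* = 0.854). The coefficient of variation within a genotype was at most 11.3% for the core subunits and at least 17.9% for the *Kmt2* genes.

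*Kdm1a*, the flavin-dependent eraser of the lower methylation states, was the most even of the 10 genes in WT. It had 35.82, 35.80 and 35.71 FPKM in WT and 40.0, 33.9 and 39.6 FPKM in CKO. The CKO values lay on both sides of WT, and the log2 fold change was 0.08 (SE 0.12, 95% interval -0.19 to 0.35, limma adjusted *p* = 0.904).

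*Kdm5b*, a JmjC-domain eraser of H3K4me3, had 11.7, 9.67 and 10.2 FPKM in WT and 13.2, 9.19 and 10.4 FPKM in CKO. The groups overlapped, with CKO above WT in numbers 1 and 3. The log2 fold change was 0.04 (SE 0.16, 95% interval -0.33 to 0.41, limma adjusted *p* = 0.966). With replicates 2 and 3 alone it was -0.02.

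*Kdm6a* is X-linked and escapes X inactivation, and it was the only one of the 10 genes whose replicate 1 was the highest library in WT and the lowest in CKO. It had 10.8, 6.44 and 7.38 FPKM in WT and 8.30, 10.8 and 10.2 FPKM in CKO. WT replicate 1 was as high as the highest CKO library, and CKO replicate 1 was the lowest of its group. The log2 fold change was 0.27 (SE 0.21, 95% interval -0.21 to 0.75, limma adjusted *p* = 0.804). Within the replicate numbers the difference changed sign, at -0.38, 0.74 and 0.46 on the log2 scale. With replicates 2 and 3 alone, where 15.0% of the tested genes were called and 7.05% were called higher in CKO, *Kdm6a* was called higher with a log2 fold change of 0.60 (SE 0.13, limma adjusted *p* = 0.00139).

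Transcripts of the Y chromosome moved against *Kdm6a*. The summed FPKM of the Y-linked genes *Ddx3y*, *Eif2s3y*, *Kdm5d* and *Uty* was 17.1, 20.96 and 27.04 in WT and 33.2, 13.03 and 8.57 in CKO. The 3 libraries with the lowest Y-linked sum, CKO replicates 3 and 2 and WT replicate 1, were the 3 with the highest *Kdm6a*. *Uty*, the Y-linked partner of *Kdm6a*, had 1.80, 2.099 and 2.48 FPKM in WT and 3.18, 1.28 and 0.767 FPKM in CKO. Its log2 fold change was -0.49 over all libraries (SE 0.44, limma adjusted *p* = 0.837) and -1.12 with replicates 2 and 3 alone (adjusted *p* = 1.7e-04).

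In replicates 2 and 3 alone the other Y-linked genes fell too, with log2 fold changes of -0.91 in *Ddx3y*, -1.598 in *Eif2s3y* and -0.96 in *Kdm5d*, and limma called all of them. Of the other X-linked partners, *Eif2s3x*, a translation initiation factor subunit, rose by 0.76 on the log2 scale (limma adjusted *p* = 2.0e-04). *Ddx3x*, an RNA helicase, differed by 0.39 (limma adjusted *p* = 0.0881) and *Kdm5c*, an H3K4 eraser, by 0.22 (limma adjusted *p* = 0.259). *Kdm5c* had 34.3, 23.5 and 24.6 FPKM in WT and 29.0, 28.6 and 27.4 FPKM in CKO. The number of male and female embryos in each library was not given, and its part in the *Kdm6a* values was not tested.

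**Figure D4:**
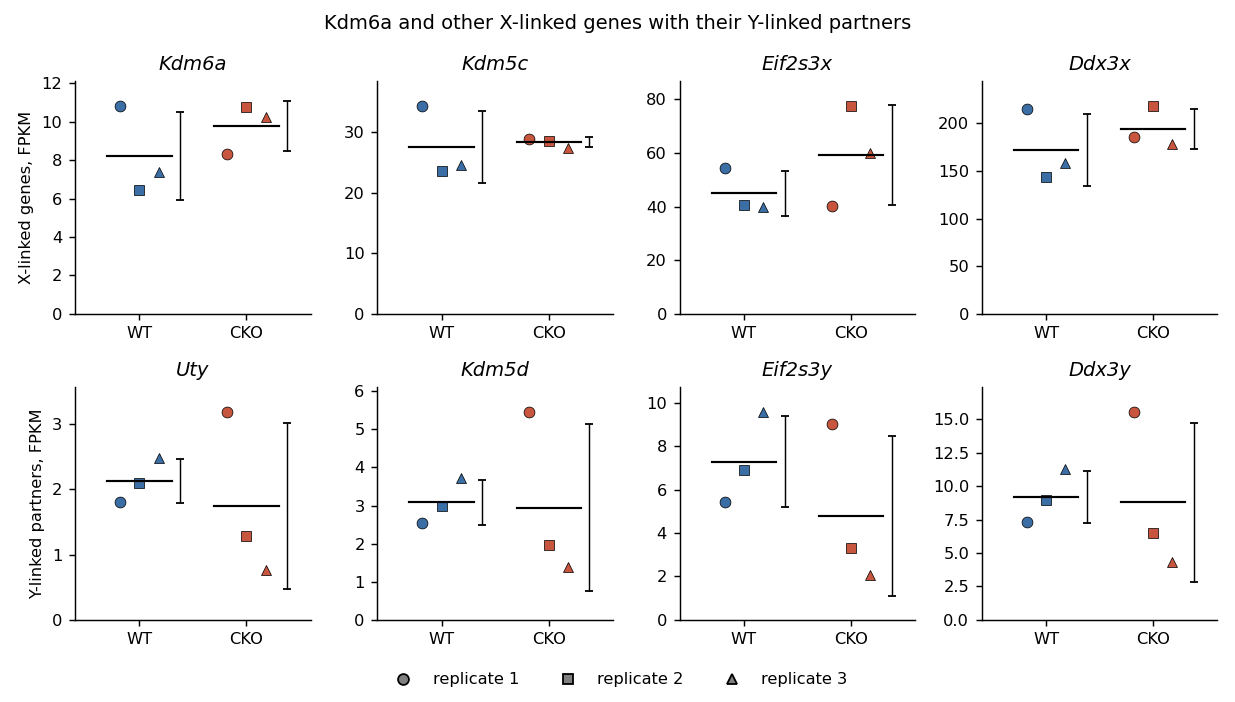
FPKM of *Kdm6a* and 3 other X-linked genes (top row) and of their Y-linked partners (bottom row) in each library, with WT in blue, CKO in red, marker shapes for replicate numbers, lines at group means and bars for the SD of 3 libraries. CKO replicate 1 is the highest of all libraries for *Uty*, *Kdm5d* and *Ddx3y* and the lowest of the CKO libraries for *Kdm6a* and *Eif2s3x*.

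Other genes of H3K4 methylation were counted on 5 lists with 50 genes, of which 49 were tested. *Pagr1a*, a subunit of the KMT2C and KMT2D complexes, was listed at 0 in every library, and its exons share bases with *Pagr1b* on the same strand. By limma, 0 of the 49 were called and 1, *Phf21a*, was at an unadjusted *p* under 0.05. CKO was higher on average for 25 and lower for 24.

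Of the other COMPASS genes, 8 of 12 were higher and 4 lower, with a median log2 fold change of 0.03. *Hcfc2*, a host cell factor, had the largest rise in value at 0.28 (SE 0.13, limma adjusted *p* = 0.635). Its FPKM was 3.83, 4.601 and 4.62 in WT and 5.02, 5.78 and 5.15 in CKO, with no overlap. *Cxxc1*, the CpG-binding subunit of the SET1 complexes, was lowest at -0.13. *Wdr82*, another SET1 subunit, lay below WT in all CKO libraries at -0.12 on the log2 scale.

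Among 7 other SET-domain genes, 5 were higher and 2 lower. *Smyd1*, a muscle gene, had 0.110, 0.763 and 0.504 FPKM in WT and 0.340, 1.52 and 1.13 FPKM in CKO. These values rest on 9 to 83 reads per library in WT and on 28 to 132 in CKO. CKO was above WT within each replicate number, and the groups overlapped. Its log2 fold change of 1.002 (SE 0.63) was not called by limma (adjusted *p* = 0.739) and was called with the replicate block (SE 0.24, adjusted *p* = 0.0450), where 2.81% of the tested genes were. The call was lost when the length trend was also removed (1.02, SE 0.23, limma adjusted *p* = 0.0591). The muscle precursor markers (5 genes, none at 0) summed to between 11.6 and 15.4 FPKM in WT and to between 16.7 and 18.3 FPKM in CKO, without overlap, and their part in the *Smyd1* values was not tested. *Prdm9*, a meiotic methyltransferase, was lowest of the list at -0.28.

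Of 6 other H3K4 and H3K27 demethylases, 2 were higher and 4 lower, from *Kdm5a* at 0.13 to *Uty* at -0.49. Of 11 partners of KDM1A, 3 were higher and 8 lower, with a median of -0.07. *Zmym2* was highest at 0.17 and *Phf21a*, the subunit that reads unmethylated H3K4, was lowest. *Phf21a* had 10.9, 8.93 and 9.70 FPKM in WT and 9.24, 6.38 and 7.15 FPKM in CKO, with a log2 fold change of -0.38 (SE 0.16, limma adjusted *p* = 0.587). CKO was below WT in every replicate number, and CKO replicate 1 overlapped the WT values.

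Of 13 readers of H3K4 methylation, 7 were higher and 6 lower. *Chd1*, a chromatin remodeller, was highest at 0.22. *Ing4* was lowest at -0.78 (SE 0.36, limma adjusted *p* = 0.624), with 0.834, 0.722 and 0.784 FPKM in WT and 0.685, 0.196 and 0.473 FPKM in CKO. These values rest on 20 to 92 reads per library, and 1855 of its exon bases are shared with *Gm44597* on the same strand. All its CKO values were below the WT values, as were those of *Ing2*.

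The fold changes of the 10 genes were also set beside other chromatin genes. Of 28 tested Polycomb genes, which write and read marks of repression, 13 were higher and 15 lower, with a median of -0.05 and values from -0.30 in *Cbx6* to 0.23 in *Ezh1*. Exons of *Cbx6* share 563 bases with *Npcd* on the same strand. Of 12 genes of CTCF and cohesin, which shape chromatin loops, 10 were higher and 2 lower, with a median of 0.12 and values from -0.04 in *Smc1a* to 0.36 in *Stag2*. Of both lists limma called 0 genes, and 0 were at an unadjusted *p* under 0.05. Whether the lists differ from the 10 genes was not tested.

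**Figure D5:**
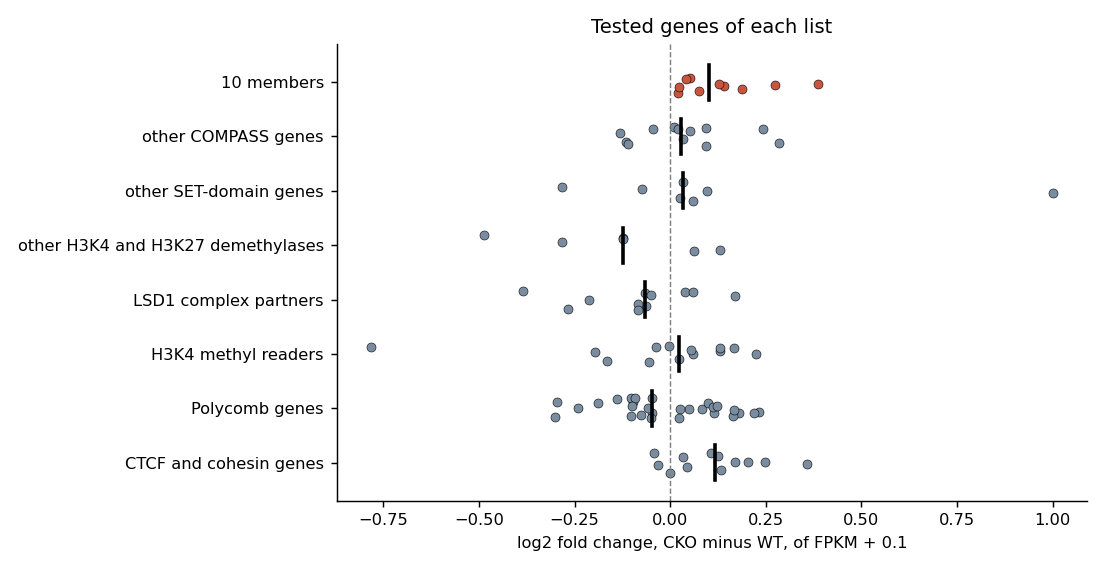
Log2 fold change (CKO minus WT, FPKM + 0.1) of each tested gene in the 10 writers and erasers (red) and in 7 lists of other chromatin genes (grey), 1 point per gene spread vertically for sight, with a black line at each list's median. The 10 genes lie between 0.02 and 0.39, and the point at 1.002 is *Smyd1*.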

How the data were processed

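The data are 3 WT and 3 CKO libraries of stranded mRNA from E11.5 limb buds. The authors deposited 1 table of FPKM for 22040 genes. The submitters' processing notes name HISAT2 2.1.0, featureCounts 1.6.3 and mm10, without roles. Reads were recovered as FPKM times the merged exon length in GENCODE vM21, scaled by the divisor found for each library. They were whole in all 6 libraries for 92.6% of the matched genes (tolerance 0.1 reads). With these divisors 9 of the 10 genes had 1259 to 4893 reads each per library. *Kmt2d* did not give whole reads.

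The 12305 genes whose FPKM averaged 0.5 or more were compared on log2(FPKM + 0.1), which understates changes of low genes, with limma 3.58.1 (lmFit, eBayes with a trend) in R 4.3.3. *P* values were adjusted over all tested genes by the Benjamini-Hochberg method and called under 0.05. In simulated data, 200 genes were changed by 1 or 2 on the log2 scale. Same-numbered libraries were given the same replicate effect there, with noise of the size left by the fit with the block. A gain from the block was thus built in and says nothing about the block in the real libraries. Without the block 128 were recovered, 36 of those changed by 1 and 92 of those changed by 2, with 0 false calls. With the block 150 were recovered, 62 and 88, with 2 false calls. Many changes of size 1 were thus missed. Same-numbered WT and CKO libraries deviated together (correlation across genes 0.64, 0.44 and 0.27), so a replicate block was an alternative. The pairing rests on number 1, since the crossed correlations of numbers 2 and 3 were as high (0.49 for WT 2 with CKO 3, 0.31 for WT 3 with CKO 2). The other alternatives were pseudocounts, filters, scalings, voom on recovered reads, replicates 2 and 3 alone and each library left out, and removal of the length trend was added after the data were seen.

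The genes, lists and rules were chosen with earlier results of these data known. Named genes are the 10 genes, *Hnrnpk*, X- and Y-linked partners, list genes called with or without the block, the largest rise and fall per list, and the 5 genes most like the *Kmt2* mean. *Wdr82* and *Ing2* were named after their values were seen, for not overlapping between the genotypes.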

Additional observations from a re-analysis of the deposited data

How the results depend on the processing

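Of 188 recomputed log2 fold changes of the 10 genes, 171 kept their direction and their side of the threshold, 16 reversed and 1 passed it. None of the 10 genes was called under any of the alternatives except replicates 2 and 3 alone, where 1 was, *Kdm6a* (0.60 on the log2 scale). That setting also gave -0.10 for *Kmt2b* and -0.0240 for *Kdm5b*, a median of 0.0562 for the 10 genes, 5 called genes of the other H3K4 lists and 1851 of all tested genes. Quantile normalization gave -0.0304 for *Wdr5* and 14 calls in all. With the replicate block 1 gene of the other H3K4 lists and 346 of all were called, and 2 and 567 with voom and the block. With the length trend removed and the replicate block, 203 of all were called and 0 of the other H3K4 lists. The block changed no call of the 10 genes. With each library left out in turn, 1 to 23 of all tested genes were called (8 in all libraries, 23 without CKO replicate 1, 3 without WT replicate 2, and 1 when WT replicate 3 or either of CKO replicates 2 and 3 was left out), and the median of the 10 genes ran from -0.0132 (without CKO replicate 1) to 0.20 (without WT replicate 1). The single genes ran from -0.24 to 0.45 in *Kmt2a*, -0.24 to 0.24 in *Kmt2b*, -0.0753 to 0.45 in *Kmt2c*, -0.0080 to 0.65 in *Kmt2d*, -0.0309 to 0.11 in *Wdr5*, -0.0027 to 0.0565 in *Ash2l*, 0.08 to 0.22 in *Rbbp5*, 0.0336 to 0.15 in *Kdm1a*, -0.10 to 0.16 in *Kdm5b* and 0.12 (without WT replicate 2) to 0.49 (without WT replicate 1) in *Kdm6a*. The cause was not tested. *Kmt2d* was left out of voom, since its reads were not whole. With 3 libraries per genotype, the intervals of the *Kmt2* genes without the block reach from -0.73 to 1.22, so changes of that size lie within the error of that model.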
